A study of Mus musculus with 9 samples.

Results

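The cytosolic ribosomal protein genes of the mouse were examined in hippocampal RNA. They were taken from the deposited count matrix by name: protein-coding genes whose GENCODE symbol begins with Rpl or Rps and a digit, plus Rpsa, Rplp0, Rplp1 and Rplp2, without symbols containing -ps, the Rps6k kinases and Rps19bp1. The rule found 85 of 47643 genes, 52 named for the large subunit and 33 for the small subunit, on 19 chromosomes. RNA-seq had been made from hippocampus, with 9 libraries, 3 in each of 3 groups. WT were MRL/mpj mice, MRL/lpr were mice of the lupus-prone strain that carries the lpr insertion in Fas on the same background, and MRL/lpr+MSC were MRL/lpr mice given mesenchymal stem cells. The WT and MRL/lpr mice are labelled untreated in the sample fields, while the series title names PBS for MRL/lpr. The age was 6 weeks in all groups, and the source, dose and route of the stem cells are not given in the sources used here.

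Ribosomal proteins are the protein part of the ribosome, the particle that translates messenger RNA. Most of them are needed in equal amounts in every cell, and their mRNAs are among the most abundant in any tissue. Many begin with a run of pyrimidines, the 5′ terminal oligopyrimidine tract, through which the TOR kinase pathway controls their translation. In mammals their mRNAs have been copied back into the genome many times, which has left a large number of processed pseudogenes, intronless and often nearly identical to the parent coding sequence.

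The libraries held 19475804 to 26912031 counts in genes. The lpr mutation inserts a transposable element into Fas, a death receptor gene, and Fas had 1.63 to 2.0 CPM (counts scaled to a common library size) in WT, 1.34 to 2.28 in MRL/lpr and 0.986 to 1.81 in MRL/lpr+MSC, and these ranges overlap. The labels name C57BL/6 as the strain of all 9 libraries, against the series title. In the study's supplementary expression table, the columns headed MRL/lpr were constant multiples of the libraries labelled MRL/lpr+MSC, for 100% of 1811 to 1892 genes, and not of those labelled MRL/lpr. The labels were kept, and a comparison with WT is therefore given for both groups. Summed markers of the choroid plexus, the epithelium that makes cerebrospinal fluid, ran from 106 to 10020 CPM between libraries and were highest in MRL/lpr replicate 2 and MRL/lpr+MSC replicate 2. The part of the dissection in the results was not tested beyond leaving out each library.

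The 85 genes took 1.46, 1.36 and 1.36% of the counts in the WT libraries. They took 1.56, 1.5 and 1.62% in MRL/lpr and 1.28, 1.49 and 1.54% in MRL/lpr+MSC. All 3 MRL/lpr libraries were above all 3 WT libraries, while MRL/lpr+MSC held both the lowest value of the series, in replicate 1, and, in replicate 3, a value within the range of MRL/lpr. Large and small subunit genes moved together, from 0.734 to 0.920% and from 0.542 to 0.701% over the 9 libraries. A share of the total also moves with the other genes in it. After scaling by trimmed mean of M-values (TMM), the mean log2 deviation of the members from their own average was 0.05, -0.06 and -0.01 in WT, 0.02, 0.02 and 0.10 in MRL/lpr and -0.14, -0.01 and 0.03 in MRL/lpr+MSC, and on this scale the groups overlapped.

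**Figure D1:**
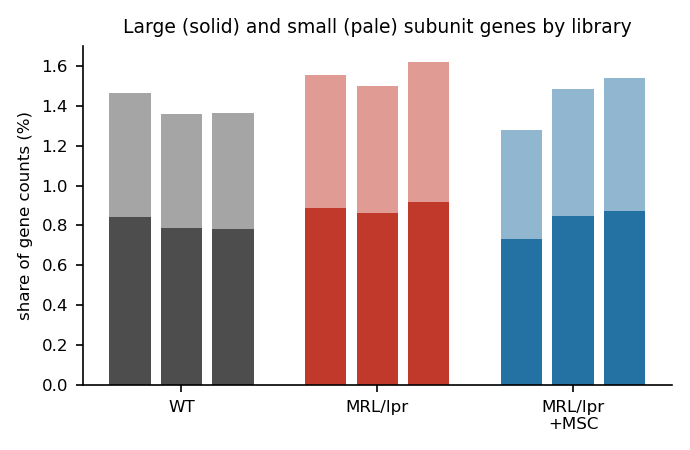
Share of all gene counts (%) taken by the 52 large subunit genes (solid) and the 33 small subunit genes (pale), one bar per library in replicate order. The bars of MRL/lpr, at 1.5 to 1.62%, all stand above those of WT, and MRL/lpr+MSC replicate 1 is the lowest at 1.28%.

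Compared per length, the members were abundant but spread widely. The median of the 84 members in the deposited FPKM tables was 94.1 FPKM (fragments counted per kilobase of gene and scaled for library size, mean of 9 libraries), with quartiles of 46.8 and 209, and 40 were above 100 FPKM. Rplp1, an acidic protein of the ribosomal stalk that contacts elongation factors, had the highest mean, 1155 FPKM, followed by Rps15 with 437, Rps12 with 372, Rpl4 with 349 and Rpl8 with 340 FPKM. Gene length enters these values. Rps15a, with 6270 annotated exonic bases, had a mean of 158 CPM and 25.1 FPKM. Rpl36, with 383 such bases, had 129 CPM and 318 FPKM. At the lower end, 7 members were under 10 FPKM. Rpl39l and Rpl3l, paralogs known from testis and from muscle, had means of 0.0179 and 0.145 FPKM, and Rpl10l, another testis paralog, was counted at 0 in all 9 libraries, where 3 counts would have been 0.111 to 0.154 CPM. Rpl24, a core protein of the large subunit, nevertheless had only 0.341 FPKM, and Rpl26, which lies at the exit of the peptide tunnel, had 4.70 FPKM.

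Much of the sequence of these genes is shared with other genes. Each mRNA was cut into windows of 75 bases, and a window was called shared when it also occurred in an annotated transcript of another gene. Of the 85 members, 81 had at least 1 shared window, 44 shared over 50% of their windows, and the median share was 50.3%. Rps3, Rpl3l and Rpl39l were among the members without a shared window. Rpl24 shared 80.9%, Rpl23a 81.7% and Rpl26 57.5%. Rpl26 had 5.99 to 8.36 CPM over the 9 libraries and its pseudogene Gm15772 (GRCm38 chromosome 5, 3236431 to 3236868, plus strand) had 96.7 to 116 CPM, a scale that does not account for length. Gm15772 is identical to the coding sequence of Rpl26 at 433 of 435 bases. A high shared percentage did not always go with a low level, as Rpl10 shared 91.9% of its windows and had 152 FPKM. In all, 550 genes annotated as pseudogenes shared a window with a member and were each assigned to the member with which they shared most windows, 77 members having at least 1. They are called copies here, and 55 of them had a mean of at least 1 CPM.

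**Figure D2:**
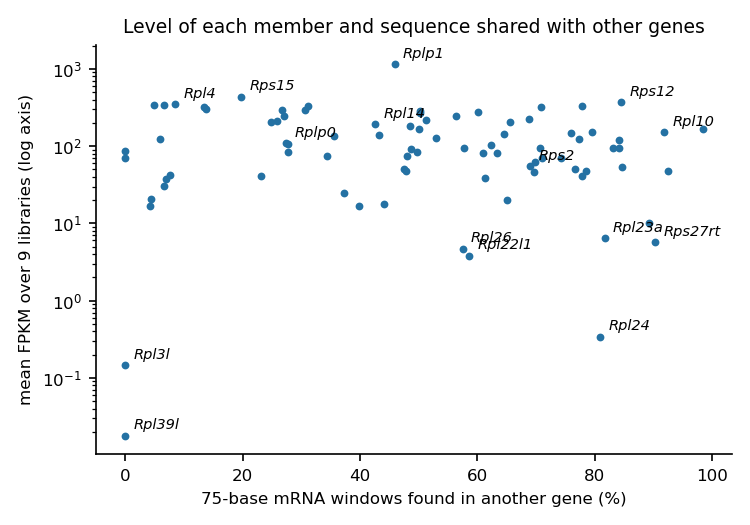
Mean FPKM over 9 libraries (log axis) of each member against the percentage of its 75-base mRNA windows that also occur in another gene, one point per gene. Rplp1 is highest at 1155 FPKM, and Rpl24, at 0.341 FPKM, shares 80.9% of its windows.

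The sequences below show how close the copies are for the members whose level differed between groups. For each pair, the 120 coding bases without a gap that hold the most differences are printed 5′ to 3′, from GENCODE transcripts on GRCm38, with the differing bases in capitals. Rpl14 lies on chromosome 9 (120571444 to 120574654, plus strand), and its copy Rpl14-ps1 on chromosome 7 (45324965 to 45325617, plus strand) matched it at 644 of 648 aligned coding bases, with a longest identical run of 419 bases. Coding bases 304 to 423 are shown.
Rpl14: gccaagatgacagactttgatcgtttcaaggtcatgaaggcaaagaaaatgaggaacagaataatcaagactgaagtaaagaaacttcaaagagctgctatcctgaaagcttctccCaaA
Rpl14-ps1: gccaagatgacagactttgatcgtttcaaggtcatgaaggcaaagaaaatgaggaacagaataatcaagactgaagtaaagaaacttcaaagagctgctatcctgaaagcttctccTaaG

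Rplp0 (chromosome 5, 115559467 to 115563727, plus strand) had a copy Gm8730 on chromosome 8 (102864845 to 102865798, minus strand) that matched at 939 of 951 coding bases and a copy Gm9625 on chromosome 13 (67810246 to 67811200, plus strand) that matched at 927 of 951. Coding bases 383 to 502 are shown beside Gm8730.
Rplp0: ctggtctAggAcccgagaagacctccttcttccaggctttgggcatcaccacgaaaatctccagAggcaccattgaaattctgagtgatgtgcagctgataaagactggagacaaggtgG
Gm8730: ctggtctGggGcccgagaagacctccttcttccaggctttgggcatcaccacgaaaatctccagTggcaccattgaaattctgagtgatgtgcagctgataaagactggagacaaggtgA
Coding bases 184 to 303 are shown beside Gm9625, the more diverged of these copies.
Rplp0: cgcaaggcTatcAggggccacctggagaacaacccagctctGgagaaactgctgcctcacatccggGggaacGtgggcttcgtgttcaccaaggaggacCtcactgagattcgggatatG
Gm9625: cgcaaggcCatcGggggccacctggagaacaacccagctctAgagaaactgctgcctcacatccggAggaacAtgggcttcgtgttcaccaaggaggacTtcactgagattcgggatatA

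Rps2 (chromosome 17, 24718116 to 24721929, plus strand) shared windows with 49 pseudogenes, of which 37 in the matrix were assigned to it. Rps2-ps13, on chromosome X (52898588 to 52899469, plus strand), matched it at 875 of 882 aligned coding bases, and Rps2-ps10 matched it at 888 of 893. The start of the coding sequence, bases 1 to 120, is shown for Rps2 and Rps2-ps13.
Rps2: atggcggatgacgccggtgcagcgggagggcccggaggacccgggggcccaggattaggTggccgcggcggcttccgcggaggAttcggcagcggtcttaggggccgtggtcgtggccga
Rps2-ps13: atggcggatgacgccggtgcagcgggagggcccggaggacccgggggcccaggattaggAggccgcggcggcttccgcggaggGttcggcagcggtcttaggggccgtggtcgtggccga

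MRL/lpr was compared with WT to ask which of these genes differ in the lupus-prone hippocampus. Of the 81 members tested, 0 were higher and 3 were lower at an adjusted p under 0.05, against 4.33% of all 16697 genes tested called higher and 4.97% called lower. The 3 were Rps2, Rpl14 and Rplp0. With a further limit of 1.5-fold, Rps2 and Rpl14 remained, against 2.38% of all genes lower, and 0 members were higher, against 3.41%. At an unadjusted p under 0.05 there were 19 members, against 30.4% of all genes.

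Rps2, a small subunit protein at the mRNA entry side, had 143, 132 and 142 CPM in WT, 80.1, 88.6 and 79.0 in MRL/lpr and 72.6, 81.1 and 82.8 in MRL/lpr+MSC. Every WT library was above every library of the other groups. Against WT, Rps2 fell by 0.75 on the log2 scale in MRL/lpr (SE 0.07, limma voom, BH-adjusted p = 0.0039) and by 0.81 in MRL/lpr+MSC (SE 0.08, limma voom, BH-adjusted p = 0.00325). Its copies did not keep their level. Rps2-ps13 had 346, 313 and 342 CPM in WT and 0.664 to 1.09 CPM in the 6 other libraries. Rps2-ps10 had 2.45, 1.51 and 2.02 CPM in WT and 110 to 129 CPM in the 6 others. The total of Rps2 and all its assigned copies was 493, 448 and 486 CPM in WT, 205, 218 and 196 in MRL/lpr and 184, 211 and 214 in MRL/lpr+MSC, and this sum fell by 1.20 (SE 0.07, limma voom, BH-adjusted p = 0.00109) and by 1.23 (SE 0.09, limma voom, BH-adjusted p = 0.00117) on the log2 scale.

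Rpl14, a large subunit protein, had 273, 251 and 237 CPM in WT, 148, 144 and 156 in MRL/lpr and 139, 140 and 149 in MRL/lpr+MSC. The groups were again apart from WT without overlap. Rpl14 fell by 0.76 on the log2 scale in MRL/lpr (SE 0.07, limma voom, BH-adjusted p = 0.00403) and by 0.82 in MRL/lpr+MSC (SE 0.08, limma voom, BH-adjusted p = 0.00282). Rpl14-ps1, the copy printed above, had 3.4, 3.05 and 3.00 CPM in WT, 105, 103 and 109 in MRL/lpr and 101, 110 and 111 in MRL/lpr+MSC. Summed with this copy, Rpl14 had 240 to 276 CPM in WT, 247 to 264 in MRL/lpr and 240 to 260 in MRL/lpr+MSC. The log2 difference of the sum was -0.01 (SE 0.07, limma voom, BH-adjusted p = 0.962) in MRL/lpr and -0.03 (SE 0.08, limma voom, BH-adjusted p = 0.839) in MRL/lpr+MSC.

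Rplp0, the protein at the base of the ribosomal stalk and a frequent reference gene in PCR, had 252, 222 and 224 CPM in WT, 168, 172 and 144 in MRL/lpr and 137, 152 and 153 in MRL/lpr+MSC. It fell by 0.52 on the log2 scale in MRL/lpr (SE 0.09, limma voom, BH-adjusted p = 0.0233) and by 0.65 in MRL/lpr+MSC (SE 0.08, limma voom, BH-adjusted p = 0.00792). Leaving out single libraries moved the value in MRL/lpr between -0.57 and -0.45, and its call was lost without any of the 3 WT libraries or without MRL/lpr replicate 1. In those fits 169 to 476 of all genes were called, against 1553 with all 6 libraries. Gm8730 had 0.749, 18.6 and 21.5 CPM in WT, 91.4, 98.2 and 77.1 in MRL/lpr and 80.2, 83.0 and 80.7 in MRL/lpr+MSC, and Gm9625 had 0.926 to 1.15 CPM in WT and 16.8 to 24.1 CPM in the 6 other libraries. Within WT, the library with the lowest Gm8730 had the highest Rplp0. Summed with its 4 assigned copies, Rplp0 had 242 to 254 CPM in WT, 243 to 295 in MRL/lpr and 235 to 256 in MRL/lpr+MSC, which overlap. The log2 difference then changed sign, to 0.14 (SE 0.09, limma voom, BH-adjusted p = 0.307) in MRL/lpr and 0.01 (SE 0.07, limma voom, BH-adjusted p = 0.96) in MRL/lpr+MSC. The calls of Rpl14 and Rplp0 ended when all copies were added, a sum chosen after seeing the data, whereas that of Rps2 held. With the planned sum over pseudogenes named after the member alone, which takes in neither Gm8730 nor Gm9625, Rplp0 and Rps2 stayed called in both comparisons and Rpl14 did not.

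**Figure D3:**
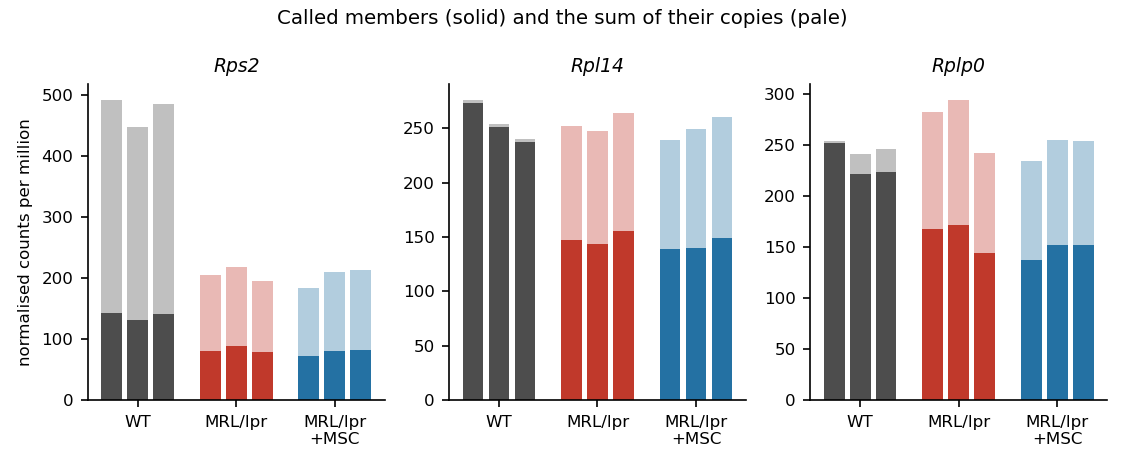
Normalised CPM of Rps2, Rpl14 and Rplp0 (solid) with the sum of their assigned copies stacked on top (pale), one bar per library in replicate order. The solid bars are lower in all 6 MRL/lpr and MRL/lpr+MSC libraries, while the full bars of Rpl14 and Rplp0 overlap with WT and those of Rps2 do not.

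Other copies also differed between groups. Of 85 copies that passed the filter on low counts, 11 were higher and 3 lower in MRL/lpr than in WT, against 4.33 and 4.97% of all genes called. Of 76 copies tested in MRL/lpr+MSC against WT, 10 were higher and 3 lower, against 2.48 and 2.54% of all genes. Copies that are near 0 in WT passed the filter only through the group where they were high, so nothing is read from these counts. Rps3a2, which matched the coding sequence of Rps3a1 at 788 of 792 bases, had 0.545 to 0.849 CPM in WT and 15.1 to 18.4 CPM in the 6 other libraries. Its parent Rps3a1, a small subunit protein, had 314, 294 and 309 CPM in WT, 257, 259 and 261 in MRL/lpr and 231, 269 and 264 in MRL/lpr+MSC, with no overlap with WT. The log2 differences of Rps3a1 were -0.23 (SE 0.06, limma voom, BH-adjusted p = 0.0539) and -0.26 (SE 0.08, limma voom, BH-adjusted p = 0.121), neither past the threshold. In MRL/lpr, Rps3a1 was called lower under 4 of 19 alternatives. Rps19-ps6 went the other way, with 11.7, 16.2 and 13.3 CPM in WT and 1.12 to 1.82 CPM in the 6 others, and Rps19, a small subunit protein mutated in Diamond-Blackfan anaemia, had 163 to 189 CPM in WT and 195 to 216 CPM in MRL/lpr. The log2 difference of Rps19 in MRL/lpr was 0.23 (SE 0.08, limma voom, BH-adjusted p = 0.102), and 0.13 with its copies summed.

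Members and copies also differed between replicates of the WT group, for some in opposite directions. Rpsa, the laminin receptor and a small subunit protein, had 405 and 389 CPM in WT replicates 1 and 3 and 298 CPM in replicate 2, where Rpsa-ps10 had 58.8 CPM against 2.25 and 1.91 in the others. Rps18 had 112 and 99.0 CPM in replicates 1 and 3 and 73.5 CPM in replicate 2, where Gm6436 had 19.7 CPM against 5.75 and 4.63. The sum of Rps18 and its copies stayed lowest in replicate 2, at 93.9 CPM against 118 and 104 CPM. Rpl30 had 109 CPM in WT replicate 3 and 48.1 to 59.5 CPM in the 8 other libraries, and its copy Gm12191 had 26.7 CPM in that library and 44.1 to 56.9 CPM in the 8 others. The sum of Rpl30 and its copies stayed highest in WT replicate 3, at 136 CPM against 92.8 to 118 CPM. Rps26-ps1 had 13.8 and 11.5 CPM in WT replicates 1 and 2 and 0.129 to 0.545 CPM in the other 7 libraries, and Rps26 itself had 139, 125 and 137 CPM in WT, with no opposite movement within WT. These 4 members and Rps3a1 and Rps19 were picked out after their values had been seen, and counts per gene do not show from which locus a read came.

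**Figure D4:**
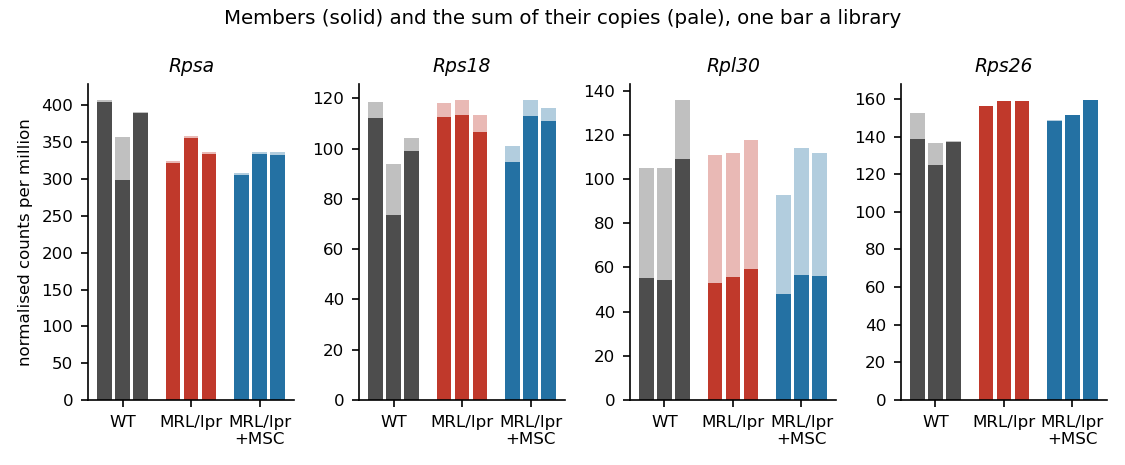
Normalised CPM of Rpsa, Rps18, Rpl30 and Rps26 (solid) with the sum of their assigned copies on top (pale), one bar per library in replicate order. WT replicate 2 has the lowest Rps18 and Rpsa and the tallest pale parts of these genes, and WT replicate 3 has the highest Rpl30, 109 CPM.

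Away from these genes the members held close to each other. The median log2 difference of the 81 members between MRL/lpr and WT was 0.09, against 0.02 over all genes tested, with quartiles of 0.01 and 0.16 against -0.18 and 0.30. A value above 0 was found for 61 members, or 75.3%, against 52.8% of all genes. The SD between libraries of a group in the mean of the members was 0.05. For 76 members the difference was under 1.25-fold, and for 71 the 95% interval lay within 1.5-fold in either direction. The libraries of MRL/lpr were all above those of WT for 25 members, against 19.4% of all genes, and all below for 8, against 18.5%. With counts corrected for gene length and GC content the median of the members was 0.04, when all genes stood at 0.03. Values above 0 were found for 45 of 81 members with that correction, and for 74 with total counts and no scaling factor. With total counts and no scaling factor the members' median was 0.21, when all genes stood at 0.15. On that unscaled basis 20 members were called higher, so the number called higher depended on the scaling. Of all 16697 genes, 1875 were called in either direction on it, against 1553 with TMM. The members' median stood above that of all genes with and without the scaling factor.

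**Figure D5:**
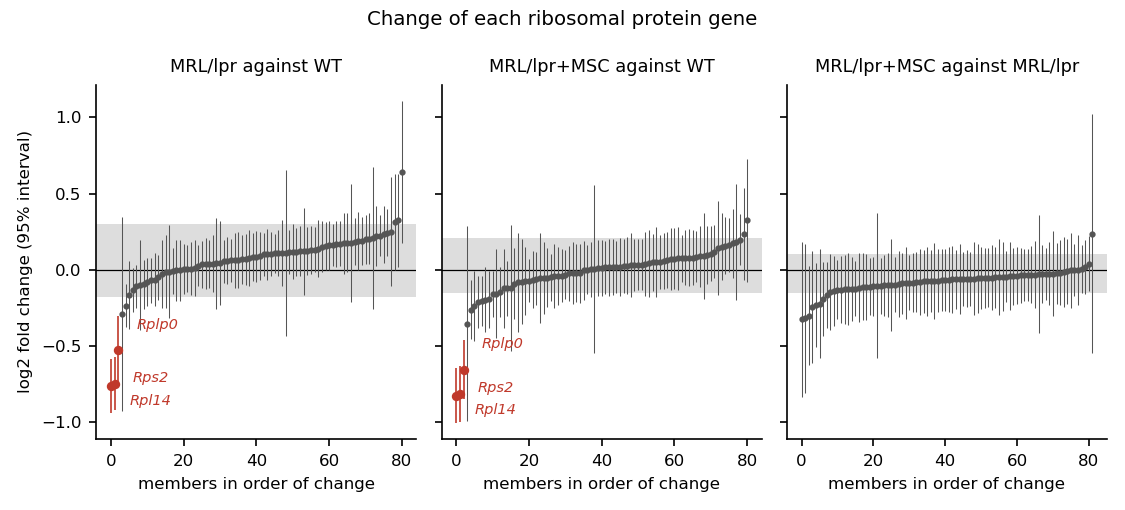
Log2 fold change of each tested member with its 95% interval, in order of size, in the 3 comparisons, members called at an adjusted p under 0.05 in red, and the range between the quartiles of all genes tested as a grey band. Rps2, Rpl14 and Rplp0 stand below the rest against WT, and nothing stands apart between the MRL/lpr groups.

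Among the 81 members tested, Rpl23a, a large subunit protein near the tunnel exit, had the largest rise in MRL/lpr, from 3.91 to 4.69 CPM in WT to 5.60 to 8.25 CPM, with a log2 difference of 0.65 (95% interval 0.18 to 1.11, limma voom, BH-adjusted p = 0.0818). It shared 81.7% of its windows with other genes. Rpl10, a large subunit protein at the subunit interface, had 290, 283 and 284 CPM in WT and 330, 330 and 339 CPM in MRL/lpr without overlap. The log2 difference of Rpl10 was 0.23 (SE 0.06, limma voom, BH-adjusted p = 0.0529), just outside the threshold. In MRL/lpr+MSC, Rpl10 ran from 279 to 350 CPM and overlapped with WT.

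The stalk proteins other than Rplp0 did not pass the test. Rplp1 had 638, 579 and 588 CPM in WT and 556 to 574 CPM in MRL/lpr, a log2 difference of -0.08 (SE 0.07, limma voom, BH-adjusted p = 0.441). Rplp2, its partner in the stalk, had 145 to 170 CPM in WT and 154 to 165 CPM in MRL/lpr, a difference of 0.04 (SE 0.08, limma voom, BH-adjusted p = 0.745).

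Paralogs that can replace a core member were counted beside their parents. Rps27l, a p53 target related to Rps27, had 15.9 to 16.4 CPM in WT, 18.2 to 19.5 in MRL/lpr and 12.4 to 17.5 in MRL/lpr+MSC, and per length its mean was 20.4 FPKM against 168 FPKM of Rps27. Its log2 difference in MRL/lpr was 0.22 (95% interval 0.03 to 0.42, limma voom, BH-adjusted p = 0.127). Rpl22l1 had 6.50 to 8.66 CPM in WT and 7.16 to 10.8 CPM in MRL/lpr, and its parent Rpl22 had 110 to 123 CPM and 94.7 to 117 CPM. The differences of this pair had opposite signs, 0.21 (SE 0.20) for Rpl22l1 and -0.17 (SE 0.09) for Rpl22, and neither passed the test. Rpl7l1, a relative of Rpl7 with a role in ribosome assembly, had 31.8, 45.3 and 39.6 CPM in WT and 44.9 to 51.9 CPM in MRL/lpr, which overlap, with a log2 difference of 0.31 (95% interval 0.00 to 0.63, limma voom, BH-adjusted p = 0.166). Rpl36al had 45.5 to 53.6 CPM in WT and 53.9 to 57.9 CPM in MRL/lpr, and Rpl36a had 82.6 to 92.0 and 90.5 to 97.8 CPM. Rps27rt, an intronless relative of Rps27, had 1.58 to 2.45 CPM over the 9 libraries and shared 90.3% of its windows. All 5 paralogs tested in this comparison had a difference above 0, with a median of 0.21, and 0 were called.

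MRL/lpr+MSC was compared with WT in the same way. Of 81 members tested, 0 were higher and 3 lower, again Rps2, Rpl14 and Rplp0, against 2.48 and 2.54% of 16196 genes. All 3 were past 1.5-fold, against 1.5% of all genes lower, and 0 were higher, against 1.93%. At an unadjusted p under 0.05 there were 10 members, against 22.9% of all genes. The WT libraries enter both comparisons, so the same 3 names are not separate evidence. The median log2 difference of the members was 0.01, as was that of all genes, and 45 members, or 55.6%, were above 0 against 51.7%. The libraries were all above WT for 2 members, against 15.2% of all genes, and all below for 11, against 14.4%. Among the 2 above WT, Rps26, a protein at the mRNA exit side of the small subunit, had 125 to 139 CPM in WT and 148 to 159 CPM in MRL/lpr+MSC, a log2 difference of 0.20 (SE 0.07, limma voom, BH-adjusted p = 0.16). With its copies summed the difference of Rps26 was 0.11.

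MRL/lpr+MSC was compared with MRL/lpr, the groups that the design sets apart by the stem cells. Since the study's own table carries the libraries labelled MRL/lpr+MSC under MRL/lpr, every sign below holds for the labels as deposited and would turn if the labels of these groups were exchanged. With limma voom 0 of 82 members and 0% of 16758 genes were called in either direction, and limma-trend also called 0. At an unadjusted p under 0.05 there were 0 members, against 3.86% of all genes (647). The members nevertheless lay on one side. Their median log2 difference was -0.06, against 0.00 over all genes, and 6 of 82, or 7.32%, were above 0, against 49% of all genes. The libraries of MRL/lpr+MSC were all below those of MRL/lpr for 8 members, against 5.72% of all genes, and all above for 0, against 4.27%. The shift was smaller than the SD of 0.07 between libraries in the mean of the members. That SD is the spread of single libraries and not the error of a difference between groups. Without MRL/lpr+MSC replicate 1, the library with the lowest share, the median was -0.03 and 26 members were above 0. With correction for gene length and GC content it was -0.01, with 30 members above 0. For 77 members the 95% interval lay within 1.5-fold in either direction.

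Rps27l was among the 8 members without overlap, with 12.4, 17.5 and 15.8 CPM in MRL/lpr+MSC against 18.2, 19.5 and 18.6 in MRL/lpr, with a log2 difference of -0.30 (95% interval -0.63 to 0.03, limma voom, BH-adjusted p = 0.921). Rps2 differed by -0.06 (95% interval -0.27 to 0.14), Rpl14 by -0.06 (-0.24 to 0.12) and Rplp0 by -0.13 (-0.35 to 0.10), and the libraries of the MRL/lpr groups overlapped for each of them. Of 81 copies tested between the MRL/lpr groups, 0 were called.

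The spread between replicates was small for most members. Over the 72 members of at least 50 CPM the median SD within groups was 0.083 on the log2 scale, against 0.112 over all 4682 genes at that level. Over the 77 members of at least 10 CPM, the highest library was 1.11 to 2.27 times the lowest, with a median of 1.23, and 9 members were above 1.5 times. Rpl30, Rps2, Rpl14 and Rplp0 had the widest ranges. These ranges run over all 9 libraries and take in differences between groups. For Rps2, Rpl14 and Rplp0, WT lay apart from the other groups. Their SD within groups was 5.25 to 6.31, 5.44 to 18.2 and 8.55 to 16.8 CPM.

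Starts of transcription were compared with the letters around them. RefSeq promoter windows (GRCm38.p6, 250 bases before to 50 after the start) were found for 65 members, 77 windows in all. A run of at least 8 C or T on the coding strand, between 10 bases before and 20 bases after the annotated start, was present in 24 of the 77 windows, or 31.2%, against 11.2% of all 32851 windows. CCGGAAG, the core of a site for ETS factors, occurred on either strand in 35.1% of the members' windows against 8.86% of all, and AAGATGG, part of a site for YY1, in 15.6% against 6.34%. The 4 letters CGCG were in 68.8% against 38%, and TATAAA in 9.09% against 13.6%. The windows of the 3 called members differed in this respect. From 15 bases before to 25 after the annotated start, with the longest C or T run in capitals, they read as follows.
Rpl14 (chr9:120571502-120571541, plus strand): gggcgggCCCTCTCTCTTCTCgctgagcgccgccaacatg
Rplp0 (chr5:115559452-115559491, plus strand): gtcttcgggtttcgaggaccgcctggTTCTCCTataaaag
Rps2 (chr17:24720048-24720087, plus strand): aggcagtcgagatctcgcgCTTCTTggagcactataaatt
Rpl14 had a run of 14, and Rplp0 and Rps2 had 7 and 6. These lengths hold for the annotated starts, and in the Rplp0 and Rps2 windows TATAAA lies after that start. Whether transcription begins at the annotated starts was not tested. The 24 members with a run of at least 8 had a median log2 difference of 0.12 in MRL/lpr against WT, 0.03 in MRL/lpr+MSC against WT and -0.10 between the MRL/lpr groups. The other members with a window, 37 or 38 of them, had medians of 0.09, 0.02 and -0.07.

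Genes that work with the ribosomal proteins were counted from lists, whose counts stand against 4.33% of all genes higher and 4.97% lower in MRL/lpr and 2.48 and 2.54% in MRL/lpr+MSC. Rack1 and Fau, ribosomal proteins with other names, had 161 ± 8.04 and 210 ± 6.48 CPM in MRL/lpr and 148 ± 7.88 and 193 ± 2.25 CPM in WT (SD, n = 3), with log2 differences of 0.13 each. Neither passed the test in any comparison. Of 29 translation initiation factors, 0 were called in MRL/lpr against WT and 6 were above 0, with a median of -0.09. Of 7 elongation factors and associated genes, Tpt1 was higher, by 0.30 (SE 0.07, limma voom, BH-adjusted p = 0.0394), and Eef1g lower, by -0.27 (SE 0.06, limma voom, BH-adjusted p = 0.0464). Of 32 ribosome biogenesis genes 1 was higher, Polr1b, a subunit of RNA polymerase I, by 0.62 in MRL/lpr (SE 0.13, limma voom, BH-adjusted p = 0.038) and 0.57 in MRL/lpr+MSC (SE 0.12, limma voom, BH-adjusted p = 0.045). Of 19 genes of TOR signalling and translation control, Mycn was higher by 1.25 (SE 0.22, limma voom, BH-adjusted p = 0.0233) and Eif2ak4, the amino acid sensing kinase, lower by -0.34 (SE 0.07, limma voom, BH-adjusted p = 0.0376) in MRL/lpr, and 0 were called in MRL/lpr+MSC. Of 7 snoRNA host genes tested, 0 were called in either.

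Mitochondrial ribosomal proteins make up a separate ribosome inside mitochondria. Of 77 tested, 0 were higher and 4 lower in MRL/lpr against WT, Mrpl15, Mrpl9, Mrpl27 and Mrps12, with a median of -0.02, against 4.33 and 4.97% of all genes. In MRL/lpr+MSC 1 was higher, Mrps6, and 2 lower, Mrpl9 and Mrpl27. Mrpl27 had the largest of these differences, -0.94 (SE 0.19, limma voom, BH-adjusted p = 0.0309) and -0.88 (SE 0.18, limma voom, BH-adjusted p = 0.0429). Of 87 nuclear genes of the respiratory chain 1 was higher and 2 lower in MRL/lpr, and of 12 genes of the mitochondrial genome 0 were above 0 and 1 was called lower, with a median of -0.40.

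Markers of the cells in the sample gave the following beside these values. Counts called stand against 4.33% of all genes higher and 4.97% lower in MRL/lpr and 2.48 and 2.54% in MRL/lpr+MSC. Summed neuron markers, all 10 of them detected, were 12910 to 13950 CPM in WT, 9453 to 11660 in MRL/lpr and 10340 to 13760 in MRL/lpr+MSC, and the median log2 difference in MRL/lpr was -0.31, with 1 of 10 called lower. The sum of the 10 B and T cell markers was 1.09 to 2.05 CPM in WT, 6.68 to 21.2 CPM in MRL/lpr and 1.30 to 4.91 CPM in MRL/lpr+MSC. Of the 8 tested in MRL/lpr against WT, 6 were called higher, with means of 0 to 0.345 CPM in WT. Markers near 0 in WT passed the filter only through the group where they were high, so nothing is read from this count. In MRL/lpr+MSC against WT only 1 of the 10 was tested, and 0 were called. Endothelial markers were 237 to 271 CPM in WT, 304 to 314 in MRL/lpr and 323 to 362 in MRL/lpr+MSC, with 2 of 6 called higher. Astrocyte, oligodendrocyte and choroid plexus markers had 0 called in any comparison. Of 8 microglial markers, 2 were lower in MRL/lpr, Cx3cr1 and P2ry12, and 1, Cx3cr1, in MRL/lpr+MSC against WT. Markers of neighbouring regions also differed between libraries. Summed striatum markers were 90.7 to 102 CPM in WT, 136 to 187 in MRL/lpr and 92.8 to 241 in MRL/lpr+MSC, with all 8 above 0 in both comparisons with WT and 1, Rgs9, called higher in MRL/lpr. Summed thalamus markers were 200 to 247, 232 to 478 and 184 to 486 CPM, and 1 of 8, Calb2, was called higher in MRL/lpr+MSC. Red cell markers ran from 27.8 to 166 CPM, and Hbb-bt was lower in both comparisons with WT. In bulk tissue, fewer cells of a type and less RNA per cell cannot be told apart, and the part of these markers in the members' values was not tested.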

How the data were processed

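The authors prepared poly-T selected libraries, aligned reads to the mouse genome (STAR per the paper, TopHat2 and GRCm38 per the labels) and counted reads per gene with HTSeq. They deposited a count matrix of whole-number counts, registered here as other because of its separator, and an FPKM table per library, calculated from count and gene length. Whether strand was used in counting, or how reads with several matches were treated, is not given in the sources used here. Of columns with values, 0 had no sample. FPKM and counts matched within 1% for 100% of the values over 12235 genes.

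Counts were scaled by TMM, trimming 30% of log ratios and 5% of levels, to CPM. Genes entered a fit with at least 10 counts in a median-sized library in enough libraries and 15 in all. The deposited counts were tested with limma voom (limma 3.58.1, R 4.3.3) with robust moderation, on the 6 libraries of each comparison, over all genes. Count models planned as the main test could not be run on this separator. P-values were adjusted by Benjamini-Hochberg (BH), and called means adjusted p under 0.05. Fold changes are log2. Scripts were tested on simulated data. Of 47643 genes, 47224 matched GENCODE M21 by identifier. The paper gives each library of its WT and MRL/lpr groups as 1 mouse. Its MRL/lpr columns match the libraries labelled MRL/lpr+MSC, not those labelled MRL/lpr. Which of these groups the statement covers is therefore open, and the spread of the other may be technical. Replicates differed by more than counting noise.

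Members and lists were chosen with earlier results of these data known. Named members were up to 10 called in each comparison, listed paralogs with parents, stalk members, Rpsa, the 5 highest and 5 lowest by FPKM, and Fau and Rack1. Others are said to be chosen after seeing values. Results for some further genes are not reported here. Of lists, up to 3 called genes are named. Alternatives chosen after seeing the data were limma-trend, library quality weights and summing all copies.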

Additional observations from a re-analysis of the deposited data

How the results depend on the processing

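In MRL/lpr against WT, the 0 members called higher became 20 with total counts and no scaling factor, 1 with no filter, 1 with at least 1 CPM in 3 libraries, 1 with limma-trend and 3 with library quality weights, the last pair chosen after seeing the data. Calls over all genes, in either direction, moved as well. They were 1553 in the main fit, 1875 with total counts, 1608 with no filter and 1450 with at least 1 CPM in 3 libraries. With limma-trend they were 2101 and with library quality weights 3627. Leaving out a library gave 0 to 3 members higher and 2 to 4 lower. The calls of Rplp0 were lost without any WT library or without MRL/lpr replicate 1, and 3 members higher came without MRL/lpr replicate 2. All genes called were 169 to 269 without a WT library, 476 without MRL/lpr replicate 1 and 2890 without MRL/lpr replicate 2. The median moved from 0.09 to 0.21 with total counts, 0.036 with GC and length correction and 0.036 with the replicate block and that correction, and ran from 0.06 to 0.12 without single libraries. In MRL/lpr+MSC against WT, leaving out a library gave 0 to 1 higher, the 1 without MRL/lpr+MSC replicate 1, 3 lower, and medians of -0.04 to 0.07. Without MRL/lpr+MSC replicate 1, 2749 of all genes were called, against 812 in the main fit. In MRL/lpr+MSC against MRL/lpr the counts stayed at 0 and the median ran from -0.09 to -0.03 without single libraries. With all copies summed, 1 member was lower in each comparison with WT, and Rplp0 reversed to 0.14 and 0.0082. The cause was not tested, beyond the counts of the copies themselves. Rps3a1 was also called lower in MRL/lpr with GC and length correction, limma-trend, library quality weights and without MRL/lpr replicate 2. Of 114 values of the called members under alternatives, 104 stayed called in the same direction, 8 lost the call and 2 reversed. Of 1500 values not called, of genes named by the rule, 12 became called and 74 changed sign.

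Numbered libraries were not said to be paired, and same-numbered libraries did not all deviate together, with correlations of -0.21 to 0.40. With the replicate block, 0 members were higher and 3 lower in both comparisons with WT, with medians of 0.09 and 0.01, and 0 and 0 with a median of -0.06 between the MRL/lpr groups. Over all genes, the block moved calls from 1553 to 1821, from 812 to 299 and from 0 to 0.

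DESeq2 was not run, since the deposited matrix could not be registered as counts, and edgeR, planned as the main test, was replaced by limma voom. With 3 libraries per group and a median SE of 0.07 to 0.09 on the log2 scale for members, a difference of 0.23 (Rpl10, SE 0.06) did not pass the threshold, and smaller ones were for the most part not detectable.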
